A study of Mus musculus and Rattus norvegicus with 6 samples.

Results

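The microRNA (miRNA) miR-124 was measured by small RNA sequencing of whole retinas from Sprague Dawley rats and C57BL/6 mice. Its members were taken as every listed name of miR-124, whatever its arm: rno-miR-124-3p and rno-miR-124-5p in the rat table, and mmu-miR-124-3p and mmu-miR-124-5p in the mouse table. These are 2 of the 764 names of rat and 2 of the 1915 names of mouse, and they are called miR-124-3p and miR-124-5p below. Both species were wild type and 9 weeks old, with 3 rat libraries (r1, r2 and r4) and 3 mouse libraries (m1, m3 and m4), and the labels name no treatment. Depth was 24169628 to 30514632 counts per library. The labels speak of triplicate biological samples without naming separate animals, so p-values rest on the spread from library to library, part of which may be technical. Species, strain and the separate counting of each table cannot be told apart here.

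MiRNAs are cut from a hairpin whose 5p and 3p arms can each give a mature strand; the more abundant strand usually guides the silencing of messenger RNAs and the other is mostly degraded. MiR-124 is a hallmark of neurons: it is switched on as progenitors leave the cell cycle, and it lowers transcripts of non-neuronal programmes, such as the splicing regulator Ptbp1 and components of the REST complex. In the retina it is made by photoreceptors and by inner neurons, and is low in glia. The mouse RefSeq annotation (GRCm38.p6) lists 3 loci on 3 chromosomes. Mir124a-1 lies inside the long non-coding host Mir124a-1hg, also called Rncr3, between the coding genes Msra and Kif13b; in mouse, loss of this host is known to impair cone survival. Mir124a-2 lies inside the long non-coding Mir124-2hg, between Ythdf3 and Cypt12, and Mir124a-3 lies between Bhlhe23 and Ythdf1. The tables list mature names, so the loci are counted together.

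Several other neuronal miRNAs serve below as partners against which miR-124-3p was read within a library. Their mature mouse sequences, from RefSeq (GRCm38.p6), are shown so that the partners can be told apart; capitals mark the seed, bases 2 to 8, which pairs with targets, and no seed is shared among them.
miR-9-5p: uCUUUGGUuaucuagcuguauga
miR-7a-5p: uGGAAGACuagugauuuuguugu
miR-129-5p: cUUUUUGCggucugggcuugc
miR-128-3p: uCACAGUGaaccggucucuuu
miR-132-3p: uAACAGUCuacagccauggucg
miR-212-5p: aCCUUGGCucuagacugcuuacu
Of these, miR-9 acts with miR-124 in neuronal differentiation, miR-7a and miR-129 are enriched in neural and neuroendocrine cells, miR-128 is a general neuronal miRNA, and miR-132 and miR-212 come from 1 activity-regulated transcript.

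The guide strand miR-124-3p was among the abundant miRNAs of both retinas and took a smaller share of counts in rat. On the CPM scale, which sets every library to the same total, here of all its counts, it stood at 6284, 13330 and 12925 in rat libraries r1, r2 and r4, and at 13640, 15457 and 15043 in mouse libraries m1, m3 and m4. All 3 rat libraries lay below all 3 mouse libraries, but r2 lay close to m1, and r1 stood far below every other library. The share of counts was 1.08% ± 0.396 in rat and 1.47% ± 0.0952 in mouse (SD, n = 3 each), a difference of -0.387 percentage points. A two-sided exact permutation test over the libraries gave p = 0.1, the smallest that 3 against 3 allows, and 0.3 after Benjamini-Hochberg adjustment over 3 measures: the shares of both arms and the arm ratio. Without r1 the difference was -0.159 percentage points. The separation also rested on the total used: of the counts of names that both tables list, miR-124-3p made up 0.987%, 1.93% and 1.92% in r1, r2 and r4, and 1.91%, 2.10% and 2.08% in m1, m3 and m4. By that total r2 and r4 lay just above m1, and the species overlapped (exact permutation p = 0.3).

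Counting error was small beside these spreads. It amounted to 0.257% of the count or less for miR-124-3p in every library, while the coefficient of variation between libraries was 36.5% in rat and 6.47% in mouse. The 95% Wilson interval of the share was 0.625 to 0.632% in r1 and 1.36 to 1.37% in m1, and covers counting error only, since reads copied by PCR are not independent.

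By rank, miR-124-3p was number 25, 19 and 18 of 764 names in r1, r2 and r4, and number 13, 11 and 12 of 1915 names in m1, m3 and m4. Among the 542 names that both tables list, the ranks were 22, 17 and 16 in rat and 11, 9 and 10 in mouse. Each miRNA is captured with its own efficiency in library preparation, so a rank orders counts and not molecules. In the mean rat profile miR-127-3p, miR-96-5p and let-7a-5p stood directly above it, at 1.34%, 1.29% and 1.12% of counts, and miR-211-5p, miR-378a-3p and miR-191a-5p directly below, at 1.08%, 0.878% and 0.836%. The range of each of these 6 neighbours over the rat libraries overlapped that of miR-124-3p, so the ranges alone do not settle their order. Within each rat library, however, miR-96-5p lay above miR-124-3p, which had 0.632, 0.917 and 0.910 counts per count of miR-96-5p in r1, r2 and r4. In mouse, miR-181a-5p at 2.20% and miR-99a-5p at 2.14% stood clear above it, while miR-7a-5p at 1.56%, miR-148a-3p at 1.41% and let-7a-5p at 1.25% overlapped its range. The mouse neighbour let-7i-5p at 1.28% did not overlap, and let-7a-5p also lay below miR-124-3p within each mouse library.

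The abundance test scaled the libraries to each other before comparing species. Counts of shared names were scaled by the TMM method, which assumes that most miRNAs do not differ, and tested with edgeR's quasi-likelihood test over 398 names. On this scale miR-124-3p was at 12241, 14885 and 14484 CPM in r1, r2 and r4, and at 21993, 24330 and 21524 CPM in m1, m3 and m4. The species no longer came close to each other, and r1 lay near the other rat libraries. MiR-124-3p was lower in rat by a log2 difference of -0.71 ± 0.17 (SE; edgeR adjusted p = 0.00711), in all 3 rat libraries against all 3 of mouse. As background, at an adjusted p under 0.05 the test called 24.4% of the 398 names lower in rat, and for 30.4% all rat libraries lay below all mouse libraries. In either direction the test called 50.0%, so the TMM assumption that most miRNAs do not differ was not clearly met. In all, 83 tested names had a lower log2 difference than miR-124-3p.

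The size and the call of this difference depended on the scaling, for which the TMM factors were 0.806, 1.29 and 1.32 in r1, r2 and r4 and 0.867, 0.864 and 0.967 in m1, m3 and m4. Over the alternatives the adjusted p ran from 4.76e-07 by DESeq2 to 0.317 by edgeR. With library totals of all names and no factors, the log2 difference was -0.44 and the call was lost (edgeR adjusted p = 0.246). That setting moved the median of all tested names up by 0.25 (log2), and relative to the median miR-124-3p was at -0.77, against -0.78 in the TMM fit. A change of scaling moves all names nearly alike, so this distance had to stay close and is no separate evidence for the difference. With library totals and no r1 together, it was at -0.16 (edgeR adjusted p = 0.0584), and at -0.71 relative to a median shifted by 0.47.

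**Figure D1:**
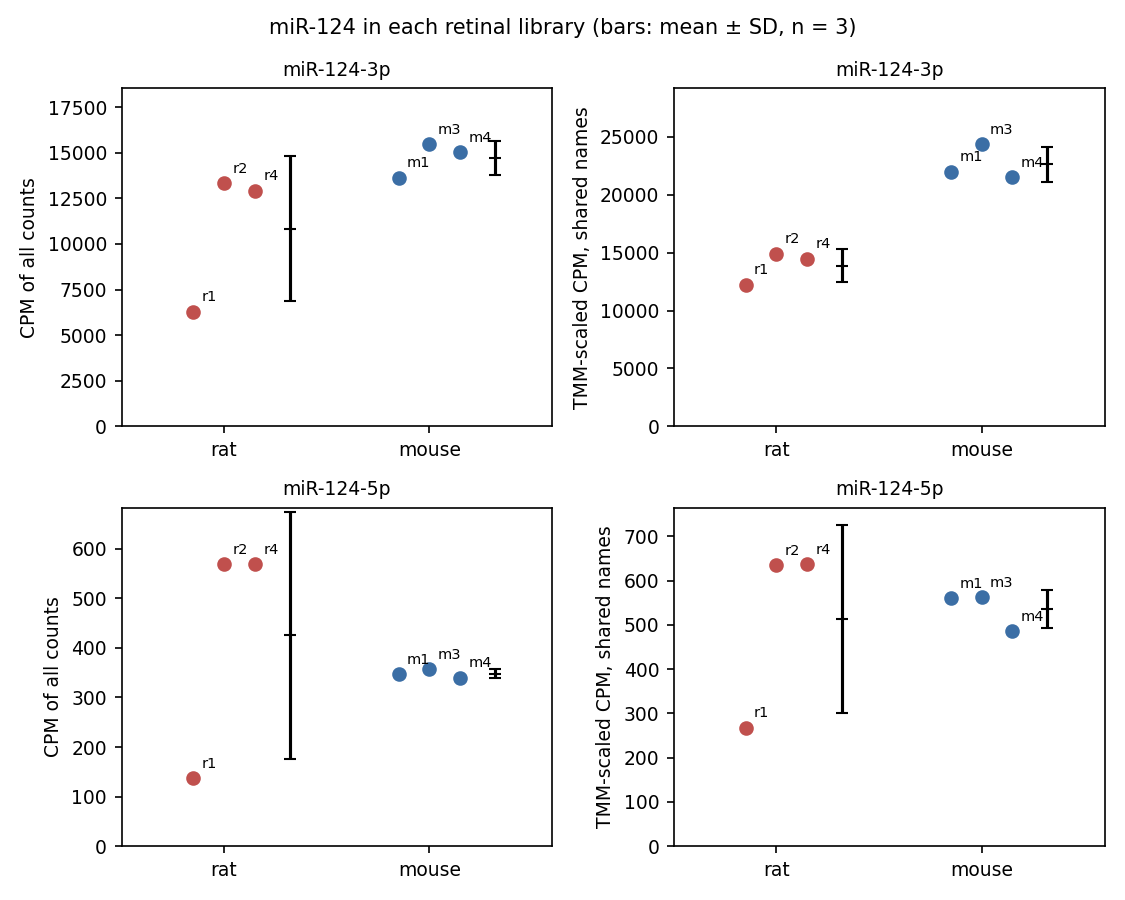
Levels of miR-124-3p (top) and miR-124-5p (bottom) in each library, as CPM of all counts (left) and TMM-scaled CPM of the shared names (right), with points for libraries and bars for the mean and SD of 3. Rat library r1 is the lowest point in all 4 panels, and only the scaled miR-124-3p levels set the species clearly apart, with rat at 12241 to 14885 and mouse at 21524 to 24330 CPM.

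A ratio to another miRNA of the same library needs no scaling. Set against each of the other 397 tested names, the miR-124-3p ratio was lower in all 3 rat libraries than in any mouse library for 249 names, 62.7%, and higher in all rat libraries for 40, 10.1%. Only 83 tested names had a lower log2 difference than miR-124-3p, so most ratios had to come out lower in rat. These counts restate its place among the names and are no separate evidence for the difference. The 10 partners described next, 6 neuronal and 4 of other retinal cells, were chosen after values were seen. In these the smallest p of the two-sided exact permutation test was 0.1, and 0.2 after adjustment over the 10.

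The counts of miR-124-3p per count of miR-9-5p (listed as miR-9a-5p in rat) were 0.140, 0.174 and 0.167 in r1, r2 and r4, and 0.240, 0.266 and 0.266 in m1, m3 and m4. The species did not overlap, and r1 was lowest but near the other rat libraries (difference of the mean log2 ratios -0.69, exact permutation p = 0.1). Per count of miR-129-5p the ratios were 0.271, 0.847 and 0.805 in rat and 1.29, 1.41 and 1.45 in mouse. This ratio did not overlap either (log2 difference -1.28), and r1 stood far apart, so that without it the difference was -0.74.

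Not every neuronal partner gave a lower ratio in rat. Per count of miR-128-3p the ratio was 6.62, 9.93 and 11.8 in r1, r2 and r4, and 6.92, 7.42 and 6.59 in m1, m3 and m4, with r2 and r4 above mouse and r1 within it. The ratio to miR-212-5p was likewise higher in r2 and r4, at 79.1 and 78.4, than in mouse, at 53.6 to 62.6, with r1 below them all at 52.3. For miR-132-3p the ratio was 20.5, 39.3 and 37.4 in rat and 31.5, 37.2 and 34.4 in mouse, which overlapped (log2 difference -0.14, exact permutation p = 1). For miR-7a-5p it was 0.345, 0.875 and 0.855 in rat and 0.862, 1.01 and 0.971 in mouse, where r2 fell inside the mouse range.

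Against photoreceptor miRNAs, made from the miR-183, miR-96 and miR-182 transcript, the picture differed by member. Per count of miR-183-5p, the ratio was 0.0336, 0.0914 and 0.0866 in r1, r2 and r4, and 0.0546, 0.0641 and 0.0638 in m1, m3 and m4, so that mouse lay between r1 and the other rat libraries (log2 difference 0.08). Per count of miR-96-5p it was 0.632, 0.917 and 0.910 in rat and 1.28, 1.49 and 1.57 in mouse, with no overlap. The widest gap of the 10 was to miR-204-5p, made in pigment epithelium and glia, with 0.420, 0.708 and 0.817 in rat and 1.61, 1.58 and 1.45 in mouse (log2 difference -1.31, and -1.02 without r1).

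**Figure D2:**
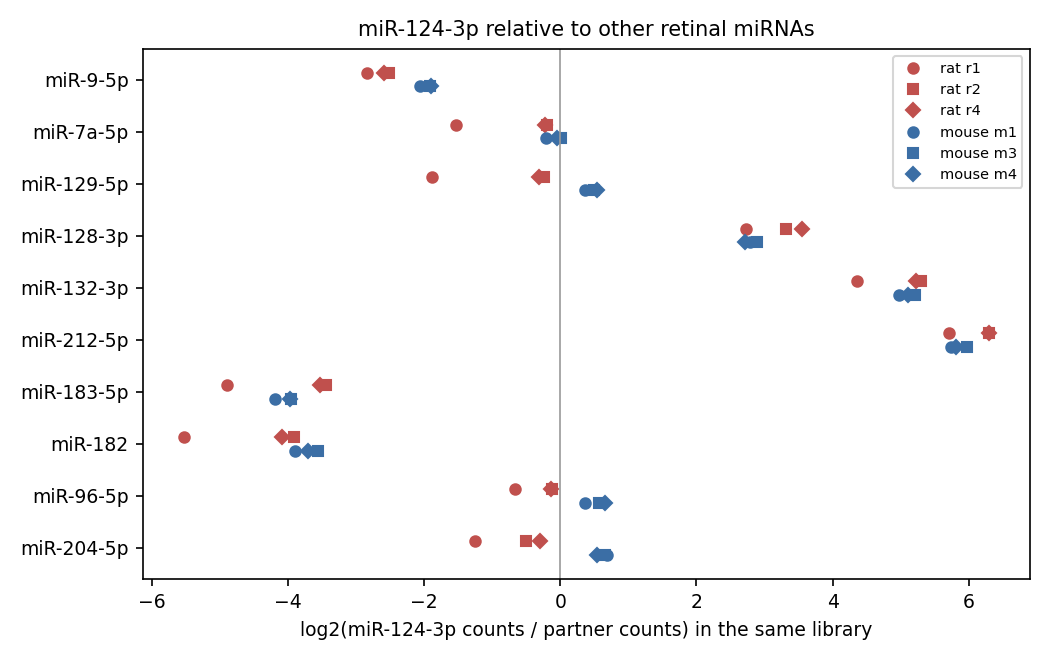
Counts of miR-124-3p divided by the counts of each of 10 partner miRNAs in the same library, on a log2 axis, with rat libraries drawn above mouse libraries in each row (miR-9-5p is miR-9a-5p in rat, and miR-182 is miR-182-5p in mouse). The species do not overlap for miR-9-5p, miR-129-5p, miR-182, miR-96-5p and miR-204-5p, and r1 gives the lowest rat value in every row.

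Among neuronal miRNAs, the fall of miR-124-3p was shared by some members and not by others. On a list of neuronal miRNAs, each listed name was represented by its more abundant arm, which leaves out miR-124-5p and other minor arms of the same name. The less abundant 3p strands of miR-129 stayed in, because miR-129-1-3p and miR-129-2-3p are listed under names apart from miR-129-5p. Of the 14 names so tested, 5 fell in rat, where 24.4% of all names did, 2 rose, where 25.6% did, and 7 were not called. With every tested arm of these miRNAs counted, a choice made after the values were seen, 7 of 24 names fell, 3 rose and 14 were not called. The median log2 difference of the 14 was -0.34, beside 0.08 over all 398 tested names. The other names that fell were miR-128-3p (-1.09 ± 0.18, edgeR adjusted p = 0.00111), miR-212-5p (-0.96 ± 0.15, 0.000898), miR-149-5p (-0.86 ± 0.16, 0.00233) and miR-132-3p (-0.54 ± 0.20, 0.0494). The names that rose were miR-129-1-3p (3.36 ± 0.17, edgeR adjusted p = 5.91e-07) and miR-129-2-3p (0.84 ± 0.16, 0.00213), which have equal counts in each rat library, so the same reads may stand under both. The most abundant of the 14, miR-7a-5p (-0.05 ± 0.29, edgeR adjusted p = 0.897) and miR-129-5p (0.72 ± 0.35, 0.124), were not called; miR-9, which had more counts than either, is listed under different names and was not tested here. With library totals alone, 3 members were lower, as were 10.8% of all names, and 3 higher, as were 31.9%, and neither miR-124-3p nor miR-132-3p was among the called. Without r1, 7 members were lower, where 34.4% of 413 names were, and 3 higher, where 36.6% were; miR-124-3p stayed called at -0.62, and miR-7a-5p was called lower at -0.50.

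Together the listed neuronal names held 9.96%, 13.1% and 13.2% of counts in r1, r2 and r4, and 10.6%, 10.9% and 10.7% in m1, m3 and m4. Of these neuronal counts, both arms of miR-124 made up 6.45%, 10.6% and 10.2% in rat, and 13.2%, 14.5% and 14.4% in mouse. The rat libraries all lay below the mouse libraries in this share, with r1 lowest. In whole retina, fewer cells of a type and less of a miRNA per cell cannot be told apart.

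**Figure D3:**
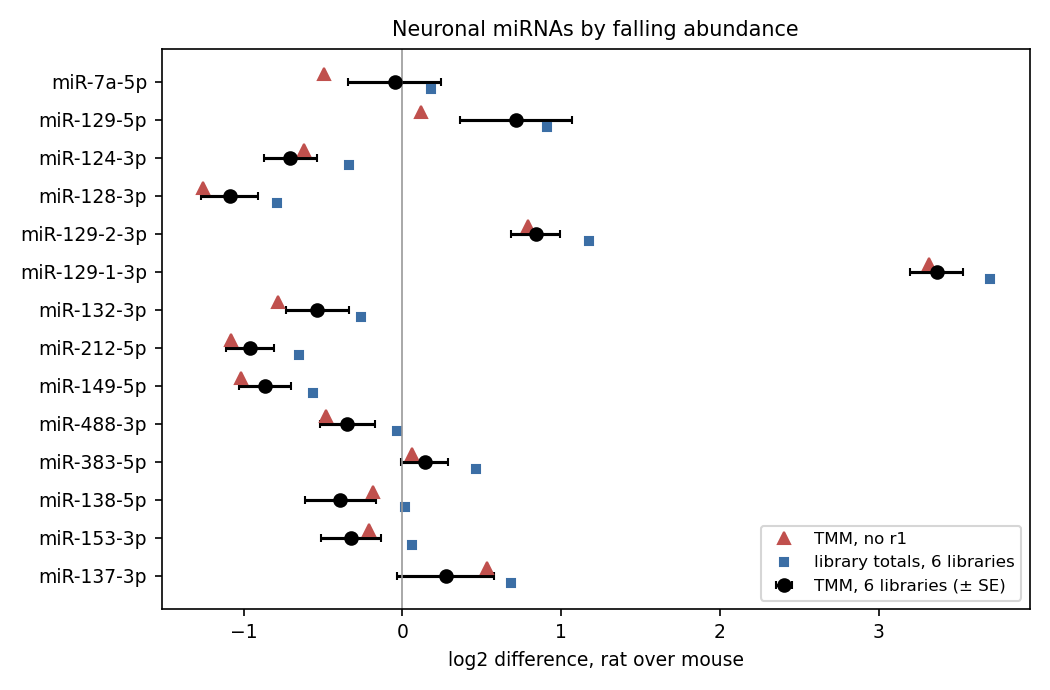
Log2 difference, rat over mouse, of the 14 tested neuronal names in order of falling abundance, with black points for the TMM-scaled edgeR fit (± SE), triangles for the fit without r1 and squares for library totals of the shared names. MiR-124-3p lies at -0.71 in the TMM fit, at -0.62 without r1 and at -0.33 with library totals.

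The levels of miR-124-5p, the minor strand, depended on r1. It was at 137.5, 569 and 569 CPM of all counts in r1, r2 and r4, and at 347, 357 and 340 CPM in m1, m3 and m4. The mouse libraries were close together, r2 and r4 lay above them all, and r1 lay below them all. Among the 542 shared names the strand ranked 107, 72 and 69 in r1, r2 and r4, and 81, 81 and 83 in m1, m3 and m4. TMM-scaled, it was at 268, 635 and 637 CPM in rat and at 560, 563 and 486.5 CPM in mouse, in the same arrangement. The log2 difference was -0.06 ± 0.30 and was not called (edgeR adjusted p = 0.869). Without r1 it was 0.25 ± 0.06 and called higher in rat (edgeR adjusted p = 0.00554; 4.43e-07 to 0.975 over the alternatives), where 36.6% of 413 names were. Only 7 of 398 names were further below r2 and r4 in r1 than miR-124-5p, which was at -1.25 (log2 of scaled CPM), against -0.26 for miR-124-3p.

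The 3p strand dominated miR-124 in every library. The 5p arm made up 2.14%, 4.09% and 4.22% of miR-124 counts in r1, r2 and r4, and 2.48%, 2.26% and 2.21% in m1, m3 and m4. That is 45.7, 23.4 and 22.7 counts of the 3p strand for each of the 5p strand in rat, and 39.3, 43.2 and 44.2 in mouse. The 5p share in r2 and r4 was above that of every mouse library, and that of r1 was below them all. Its 95% Wilson interval was 2.07 to 2.21% in r1, which overlaps that of m4 at 2.17 to 2.25%, and 4.03 to 4.16% in r2. The mean 5p share was 3.48% ± 1.16 in rat and 2.32% ± 0.145 in mouse (SD, n = 3 each; exact permutation p = 0.4, adjusted over 3 measures 0.4).

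Tested with limma over 169 hairpins that have both arms in both tables, the log2 ratio of 5p to 3p differed by 0.54 ± 0.32 (SE; limma adjusted p = 0.282), which was not called, while 24.3% of hairpins were. In 94 of the 169 hairpins the arm ratio differed by more. Without r1 the difference was 0.87 ± 0.12 and was called (limma adjusted p = 0.00540; 0.00540 to 0.517 over the alternatives), where 36.0% of 175 hairpins were. In r1 the minor arm of miR-124 was 0.99 lower relative to the major arm than in r2 and r4 (log2), and 42 of 169 hairpins had a larger drop. The median over hairpins was -0.16, with 95 of the 169 below 0.

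Of the hairpins, 79 gave mostly the 3p strand in both species. Those with a 5p share nearest to that of miR-124 were miR-151 at 2.02% in rat and 4.05% in mouse, miR-582 at 3.28% in rat and 2.88% in mouse, miR-410 at 3.12% in rat and 3.14% in mouse, miR-342 at 1.63% in rat and 3.36% in mouse, and miR-210 at 2.77% in rat and 4.36% in mouse. Of these 5 hairpins, miR-342 (log2 difference of the arm ratio -1.07 ± 0.23, limma adjusted p = 0.0194) and miR-210 (-0.67 ± 0.18, 0.0440) were called, both with a lower 5p share in rat.

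**Figure D4:**
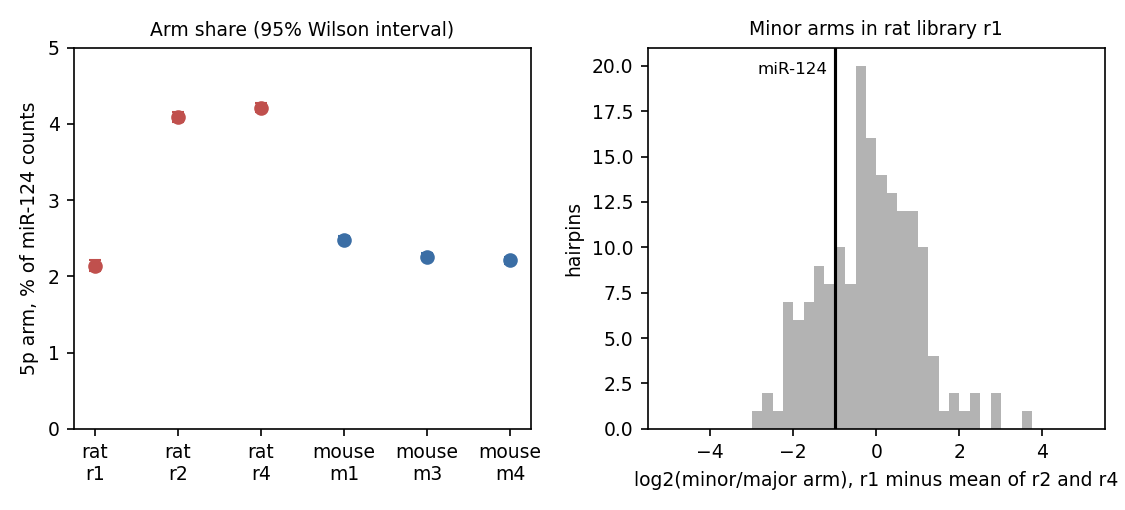
Left, the 5p arm as a percentage of miR-124 counts in each library with its 95% Wilson interval. Right, the difference in log2(minor/major arm) between r1 and the mean of r2 and r4 for 169 hairpins, with a line at miR-124. The 5p share is 4.09% and 4.22% in r2 and r4 and between 2.14% and 2.48% in the other libraries, and the line stands at -0.99 in the lower part of a wide spread.

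Over the 6 libraries, the patterns of TMM-scaled log2 CPM most like that of miR-124-3p, among 157 other names that reached 100 CPM or more in rat or mouse, were those of miR-27b-3p (Pearson r = 0.995), miR-199a-3p (0.989), miR-190b-5p (0.987), miR-181a-5p (0.985) and miR-130b-5p (0.981). Each was lower in rat, by log2 differences of -0.84, -1.18, -1.55, -0.63 and -3.57 in this order. These are descriptions over 6 points that share their libraries and fall into 2 species, so any name with a clear difference in the same direction scores high. For miR-124-5p the nearest were let-7c-2-3p and let-7a-1-3p (r = 0.960 each), miR-30e-5p (0.959), miR-107-3p (0.943) and miR-221-3p (0.935). Without r1 these were 0.758, 0.759, 0.616, 0.975 and 0.572, so the likeness of all but miR-107-3p rested largely on r1. The log2 differences of let-7c-2-3p and let-7a-1-3p were also nearly equal, at -0.0533 and -0.0528, so the same reads may stand under both.

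Rat library r1, on which several of these values turn, differed in its makeup from r2 and r4. Photoreceptor miRNAs (5 names in rat, 6 in mouse) held 48.8% of counts in r1, 36.1% in r2 and 38.3% in r4, and 43.5 to 46.4% in mouse. Not every member followed this sum: miR-96-5p had its lowest rat share in r1, at 0.994%, against a highest of 1.45%. Lens and cornea miRNAs (11 names in rat, of which 1 was at 0, and 14 in mouse, of which 3 were at 0) held 0.943% in r1, 0.183% in r2 and 0.121% in r4, and 0.0328 to 0.127% in mouse. The excess in r1 lay mostly outside the listed miR-200 strands, whose values follow on another scale than the sums. The members that carry it were not singled out, so the sum does not speak for each member. TMM-scaled, miR-200a-3p, miR-200b-3p and miR-200c-3p were at 24.4, 53.8 and 14.3 CPM in r1. They were at 12.3, 33.2 and 12.9 CPM in r2 and at 17.8, 45.9 and 14.2 CPM in r4. Pigment epithelium and glial miRNAs (miR-204 and miR-211, 4 names each, none at 0) held 2.47 to 3.11% in rat and 1.38 to 1.62% in mouse, and vascular miRNAs (6 names each, none at 0) held 0.761 to 0.804% in rat and 0.424 to 0.507% in mouse. Red blood, leukocyte and microglia, and muscle miRNAs each held 0.0421% or less in every rat library and 0.0884% or less in every mouse library. The part of these differences in the level of miR-124 was not tested.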

How the data were processed

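Eyes were stored in RNAlater, RNA of the dissected retinas was isolated with a miRNeasy kit and small RNA libraries were read on a HiSeq-2500, per the labels' protocols, which name rat eyes for both species. The deposited values are raw counts for each mature name, 1 table per species, per the file headers. How reads were trimmed, aligned, annotated and, where they match several names, divided is not given in the sources used here. Any such read may be split or counted repeatedly. The columns carry their own numbers, so each was assigned to a species and not to a numbered sample.

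Names were joined after removal of the species prefix (542 shared, 1373 in mouse only, 222 in rat only). For abundance, edgeR 4.0.16 (R 4.3.3) was run with filterByExpr, TMM and the quasi-likelihood F test, with species as the sole term and Benjamini-Hochberg adjustment over 398 names. Arm ratios were tested with limma 3.58.1 on log2((5p + 0.5)/(3p + 0.5)) for hairpins with at least 50 counts in every library. DESeq2 1.42.0, other scalings and filters, 66 further name pairs that differ by a letter or arm suffix, and leaving out each library were tried. Both fits were tested on simulated data with known changes. At a simulated log2 change of 1, the abundance fit called 85.8% of changed names and the arm fit 46.7% of changed hairpins. Of unchanged ones they called 1.74% and 0%. An arm difference smaller than 1 could thus easily go uncalled. Simulated abundance changes were as likely up as down, and all simulated hairpins had the same spread. Neither simulation set a library apart as r1 is, so these rates do not cover errors from scaling or from r1. Exact permutation tests used SciPy 1.17.1.

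The members and lists were chosen with earlier results of these data known. Names given with values followed a rule: both arms, the 8 most abundant neuronal names and 3 neighbours each way in rank. It also took the 5 nearest patterns per arm and the 5 nearest hairpins. MiR-149-5p, the patterns of miR-124-5p, the ratio partners and the miR-200 strands were added after values were seen. Lists were described by counts and medians, without a test. The part of the rule on shared seeds was not applied.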

Additional observations from a re-analysis of the deposited data

How the results depend on the processing

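The lower level of miR-124-3p in rat kept its direction under all 15 alternatives, from -0.77 to -0.16 (log2), and lost its call under 3: library totals of the shared names (-0.33), library totals of all names (-0.44), and these totals without r1, chosen after the data were seen (-0.16). Leaving out any 1 library kept the call, with -0.75 to -0.62. The difference of miR-124-5p reversed with these 3 settings (0.38, 0.29 and 0.71), which moved the median of all tested names to 0.43, 0.33 and 0.54, against 0.08 in the TMM fit; relative to that median it was at -0.05, -0.04 and 0.16, against -0.14. It ran from -0.24 to 0.25 when 1 library was left out and was called, as higher, only without r1 (0.25 by TMM, 0.71 by totals). The cause was not tested.

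The arm ratio difference ran from 0.37 to 0.87 when 1 library was left out and was called only without r1. Hairpins called in arm ratio numbered 41, 24.3% of those tested, against 27 of 115 (23.5%) with a sum of at least 500 counts and 26 to 63 when 1 library was left out. Names called in abundance numbered 199, against 79 at a mean of at least 100 CPM, where fewer names were tested, and 323 with library totals and no r1. Neuronal names called lower numbered 5 of 14, beside 24.4% of all names, and 3 under scaling by totals of shared or of all names, beside 10.8% and 11.1%. With the further name pairs they were 7 of 17, beside 26.9%; with library totals and no r1 they were 4, beside 18.8%, and 6 were higher, beside 59.2%. Library totals of the shared names moved the share of higher calls to 74.7%, against 51.3% in the TMM fit.

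No paired analysis was possible because the columns are not tied to the numbered samples of the labels; the block planned on replicate number was not run. For miR-124-5p the counting error was 1.73% or less per library.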
